A study of Mus musculus with 4 samples.

Results

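The genes described here are 9 genes of the resting, or homeostatic, microglial state: P2ry12, P2ry13, Tmem119, Cx3cr1, Csf1r, Siglech, Gpr34, Selplg and Fcrls. They were chosen by name, as every row of the deposited table whose gene symbol was 1 of the 9, in upper or lower case. In addition, 1 P2ry12 row was matched by its identifier. The members make up 9 of the 18387 genes counted, which include transcripts matched to no annotated gene. In cortex of APPswe/PS1ΔE9 mice (APP), 6 of the 9, against 0.843% of all genes, were upregulated against WT by between 1.61-fold (Siglech) and 2.14-fold (Gpr34). The other 3 did not pass: P2ry12, a common marker of these cells, was at 1.43-fold, Tmem119 at 1.23-fold with overlapping groups, and Fcrls differed more between mice of 1 genotype than between genotypes. Each member was also taken relative to other microglial RNA in the same libraries. Tmem119, P2ry12, Csf1r and, only barely, Cx3cr1 made up a smaller share in both APP mice than in both WT mice. The same held for 88.1% of all genes. Without Ctss, the most abundant of the other microglial genes used, Csf1r and Cx3cr1 overlapped between genotypes. Gpr34 made up a larger share in both APP mice, as did 216 of all 18387 genes.

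RNA was measured in cortex of 2 APPswe/PS1ΔE9 and 2 WT male mice, all 12 months old, on a C57BL/6 background. The APP mice carry a mutant APP and an exon-deleted PS1 transgene under the prion promoter, which is active in many cells of the brain, and develop amyloid plaques. The libraries are called APP-3, APP-4, WT-1 and WT-2 after the columns of the table, and the APP columns could be tied to their genotype but not to 1 mouse. The cortex was not sorted, so fewer cells of a type and less RNA per cell cannot be told apart.

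Microglia are the resident macrophages of the brain. At rest they carry a set of surface receptors that read their surroundings: receptors for the nucleotide ADP (P2ry12, P2ry13), for the neuronal chemokine fractalkine (Cx3cr1), for the survival factors CSF1 and IL-34 (Csf1r) and for a lysophospholipid (Gpr34). Around amyloid plaques, microglia are known to lower several of these genes and to express another set, led by Clec7a, Itgax and Cst7. Cx3cr1 and Csf1r are also expressed by border macrophages and monocytes, and Selplg by most leukocytes.

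The promoters are shown for 3 members whose changes in cortex were unlike: P2ry12, which missed the cut-offs, Cx3cr1, which passed them, and Fcrls, which varied between mice. Each is the 250 bases before the start of the RefSeq gene (GRCm38.p6, minus strand of the chromosome, written 5′ to 3′ in the direction of the gene). Capitals mark the letters AGGAAGT, or ACTTCCT where the match is on the opposite strand, a motif recognised by ETS factors such as the product of Spi1. The window of P2ry12 is chr3:59262986-59263235, that of Fcrls chr3:87263525-87263774 and that of Cx3cr1 chr9:120068297-120068546.
P2ry12: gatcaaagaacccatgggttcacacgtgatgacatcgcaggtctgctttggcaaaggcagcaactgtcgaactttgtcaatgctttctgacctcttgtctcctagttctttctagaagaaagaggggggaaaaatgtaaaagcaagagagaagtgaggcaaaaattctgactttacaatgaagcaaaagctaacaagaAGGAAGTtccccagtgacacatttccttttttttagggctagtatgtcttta
Fcrls: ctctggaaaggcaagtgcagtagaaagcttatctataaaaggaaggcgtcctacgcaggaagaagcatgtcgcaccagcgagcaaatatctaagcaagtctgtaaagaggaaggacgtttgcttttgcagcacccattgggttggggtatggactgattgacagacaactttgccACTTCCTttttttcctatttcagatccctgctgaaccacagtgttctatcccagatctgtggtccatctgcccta
Cx3cr1: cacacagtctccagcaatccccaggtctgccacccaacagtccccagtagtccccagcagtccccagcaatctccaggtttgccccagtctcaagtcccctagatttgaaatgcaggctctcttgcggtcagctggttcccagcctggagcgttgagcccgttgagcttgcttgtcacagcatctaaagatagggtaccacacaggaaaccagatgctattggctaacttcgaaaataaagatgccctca
The motif lay 52 bases before the start of P2ry12, in the direction of the gene, and 75 bases before that of Fcrls, on the opposite strand. Of the 5 members with a RefSeq window (also P2ry13 and Siglech), 2 held it, against 7.69% of 32851 windows of all genes. The longer form GAGGAAGT, which contains it, was in 0 of the 5 and in 2.44% of all windows, both strands searched. Tmem119, Csf1r, Gpr34 and Selplg had no window in the RefSeq set.

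The libraries held between 28525117 and 43881196 counts, and each member had at least 203 counts in every library. App and Prnp, counted as the check of the genotype labels, were higher in APP by 1.52 and 1.71 on the log2 scale, with both APP libraries above both WT libraries. A gene was called when its FDR was under 0.05 in edgeR's quasi-likelihood test, adjusted over all 18387 genes, and its fold change at least 1.5. By this rule 155 genes, 0.843% of those tested, were higher in APP, and 6 of the 9 members (66.7%) were among them. Both APP libraries lay above both WT libraries for 7 of the 9 members and for 21.3% of all genes. The median log2 fold change was 0.72 over the members and -0.0010 over all genes.

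**Figure D1:**
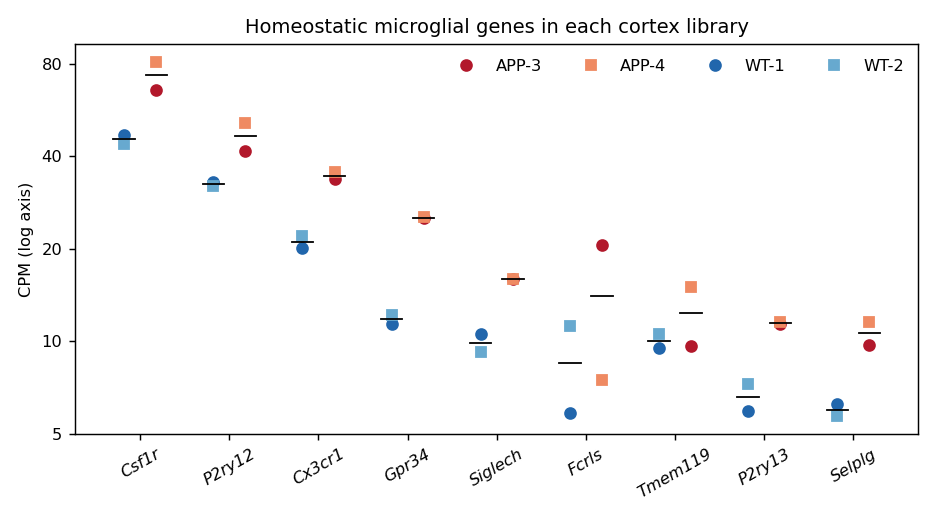
Level of the 9 members in each of the 4 cortex libraries, in CPM, counts scaled to a common library total (log axis); circles and squares are single libraries and bars are group means (n = 2). The APP libraries lie above the WT libraries for 7 members, whereas those of Fcrls and Tmem119 overlap.

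P2ry12 encodes the ADP receptor by which microglial processes find injured cells. In CPM, counts scaled to a common library total, APP-3 held 41.7 and APP-4 51.1, while WT-1 held 33.0 and WT-2 31.9. Both APP libraries were higher, and APP-4 was the highest. The log2 fold change was 0.52 ± 0.10 (SE, n = 2 per group; FDR = 0.054), so neither cut-off was met. The FDR lay between 0.00069 and 0.057 over 10 other ways of processing the same 4 libraries, while the fold change stayed under 1.5 in all of them. The gene passed without APP-3, at a log2 fold change of 0.66, and was at 0.36 when APP-4 was left out.

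P2ry13, its neighbour on chromosome 3 and also an ADP receptor, stood at 11.4 CPM in APP-3 and 11.5 in APP-4, against 5.92 in WT-1 and 7.25 in WT-2. The APP libraries were nearly equal and both lay above WT. It was upregulated by 0.80 ± 0.14 on the log2 scale (SE, FDR = 0.036), and the call was lost without WT-1, where the change was 0.66. Both genes lie inside Med12l, which is read from the opposite strand and had a log2 fold change of -0.03 (FDR = 0.93). P2ry14, a receptor of the same family beside them, was at 0.81 ± 0.36 CPM in APP and 1.24 ± 0.01 in WT (mean ± SD), with a log2 fold change of -0.60 (FDR = 0.57).

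Gpr34, a receptor for lysophosphatidylserine of the same wider family, had the largest change of the 9. WT-1 had 11.4 CPM of it and WT-2 12.2, whereas APP-3 had 25.2 and APP-4 25.3. The libraries of each genotype were close together, and the lower APP library was 2.06 times the higher WT library. The log2 fold change was 1.10 ± 0.09 (SE, FDR = 0.00084), and it was the only member called when a fold change of at least 2 was asked for. The gene lies within Cask on the opposite strand, which had a log2 fold change of -0.07 (FDR = 0.73). Of the 12 listed P2Y receptor genes 7 were counted. P2ry13 and Gpr34 were the 2 called, against 0.843% of all genes.

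Cx3cr1, the fractalkine receptor, measured 33.6 CPM in APP-3 and 35.5 in APP-4, compared with 20.05 in WT-1 and 21.9 in WT-2. The groups were apart and it was upregulated by 0.72 ± 0.08 on the log2 scale (SE, FDR = 0.0065), a call that held without any 1 library. Its annotation spans 9 other genes. Of these 4 were counted, with log2 fold changes from -0.21 (Gorasp1) to 0.13 (Ttc21a) and none called.

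Csf1r, the receptor tyrosine kinase on which microglia depend for survival, had 46.9 CPM in WT-1 and 43.7 in WT-2, and the APP libraries held 65.5 (APP-3) and 81.1 (APP-4). APP-4 stood highest and the groups did not overlap. It was upregulated by 0.69 ± 0.10 on the log2 scale (SE, FDR = 0.018). Without APP-4 the change was 0.53 and under the fold cut-off. Hmgxb3, which overlaps it on the opposite strand, had a log2 fold change of -0.07 (FDR = 0.79).

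Siglech encodes a sialic acid-binding lectin that signals through the adaptor Tyrobp. Its level in WT was 10.6 CPM for WT-1 and 9.20 for WT-2, and in APP it was 15.89 for APP-3 and 15.98 for APP-4. The APP libraries were almost equal and above both WT libraries, and it was upregulated by 0.69 ± 0.11 on the log2 scale (SE, FDR = 0.029). Selplg, the selectin ligand PSGL-1, stood at 6.24 CPM in WT-1 and 5.73 in WT-2, against 9.75 in APP-3 and 11.6 in APP-4. It was upregulated by 0.83 ± 0.14 (SE, FDR = 0.034), again with the groups apart. Selplg was no longer called without WT-1 or without WT-2, and Siglech not without WT-2.

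Tmem119, a membrane protein found in the brain almost only in microglia, measured 9.49 CPM in WT-1 and 10.6 in WT-2, and 9.69 in APP-3 beside 15.01 in APP-4. APP-3 lay within the WT range and APP-4 above it. The log2 fold change of 0.30 ± 0.19 (SE, FDR = 0.59) had a 95% interval from -0.13 to 0.74. It was 0.58 when APP-3 was left out and -0.045 when APP-4 was, so the sign of the difference rested on APP-4.

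Fcrls encodes an Fc receptor-like protein of mouse microglia. The APP libraries held 20.5 CPM (APP-3) and 7.46 (APP-4), the WT libraries 5.85 (WT-1) and 11.2 (WT-2). The highest level and the next to lowest were both in APP mice, and the libraries of 1 genotype differed by 2.75 times in APP and 1.91 times in WT. The log2 fold change was 0.73 ± 0.43 (SE, FDR = 0.56), and it turned to -0.17 when APP-3 was left out. With APP-4 left out instead it was 1.29 and the gene was called. The median log2 fold change of the other 8 members was 0.71.

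**Figure D2:**
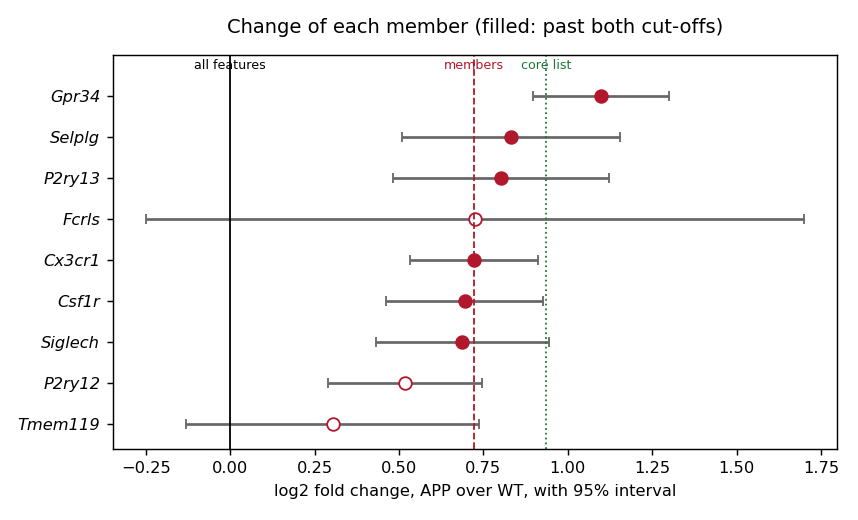
Log2 fold change of each member, APP over WT (points), with its 95% interval (bars) from edgeR's quasi-likelihood fit; filled points passed both cut-offs. The dashed line is the members' median of 0.72, the dotted line the median of 0.94 over 30 core microglial genes and the solid line that of all genes; the interval of Gpr34 lies above those of P2ry12 and Tmem119 throughout.

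The log2 fold changes of the 9 genes ran from 0.30 (Tmem119) to 1.10 (Gpr34). The interval of Gpr34, from 0.90 to 1.30 on the log2 scale, did not overlap that of P2ry12, from 0.29 to 0.74, or that of Tmem119. Differences between members were not tested in the fit. As ratios within a library, chosen after the values were seen, there were 2.60 counts of Gpr34 for each of Tmem119 in APP-3 and 1.68 in APP-4, but 1.20 and 1.15 in WT-1 and WT-2. For each count of P2ry12 there were 0.604, 0.494, 0.345 and 0.383 of Gpr34 in the same order. Both ratios were higher in both APP mice, where the exact permutation test over 4 libraries can give no p below 0.333.

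Ordered by level per length, in CPM per kilobase of transcript, WT cortex had most of P2ry12 (14.4 ± 0.30, mean ± SD, n = 2) and Csf1r (11.7 ± 0.54). Gpr34 (5.64 ± 0.30) and Cx3cr1 (5.59 ± 0.37) followed and were nearly equal in both WT libraries. Siglech (4.65 ± 0.46), Tmem119 (4.47 ± 0.36) and Fcrls (3.74 ± 1.66) overlapped one with the next, as did Fcrls and Selplg (3.22 ± 0.18), and P2ry13 (2.60 ± 0.38) was lowest. In APP cortex P2ry12 (20.6 ± 2.77 CPM per kilobase) and Csf1r (18.9 ± 2.65) overlapped between mice. Within a library P2ry12 was the higher, at 18.7 against 17.1 in APP-3 and 22.6 against 20.8 in APP-4. Gpr34 (12.1 ± 0.08) lay above Cx3cr1 (9.22 ± 0.27) in both APP mice.

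Each gene sum rested on few transcripts. The 9 genes had 14 counted transcripts, and the most counted 1 of each gene held at least 78.6% of its counts, the lowest share being that of Siglech with 4 transcripts. Tested as single transcripts, 6 of the 14 were called higher in APP, against 0.749% of 37539 transcripts. The main transcript of P2ry12 had a log2 fold change of 0.52 (FDR = 0.011), under the fold cut-off. No stretch of 100 bases or more at an identity of at least 93% was shared with a transcript of another gene.

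The next question was whether these genes rose less than other microglial genes. The core list held 30 genes that microglia express in most states, such as complement C1q, Itgam and Ctss. All 30 had a positive fold change. Both APP libraries lay above both WT libraries for 28 of them, against 21.3% of all genes. Of the 30, 16 were called higher in APP, against 0.843% of all genes. The median of the core list was 0.94, above the members' 0.72, and 21 of the 30 lay above the members' median. Among core genes with a mean of at least 1 CPM, 4 had the largest changes, and all 4 were called. They were Ly86 (1.502, FDR = 0.014), a partner of a Toll-like receptor relative, and Ptprc (1.37), the leukocyte phosphatase CD45. The others were Cyba (1.33), a subunit of the NADPH oxidase, and Itgb2 (1.19), the integrin chain of Itgam. The call of Cyba was lost without WT-2 and that of Ptprc when coding transcripts alone were summed. At the other end were Cd300a (0.12), Mertk (0.17), a receptor for apoptotic cells, Il10ra (0.38) and Spi1 (0.48), none of them called.

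The gap of 0.21 between the core and the member medians rested on APP-4. Against the WT mean of each gene, the median core gene was higher by 0.72 in APP-3 and by 1.02 in APP-4 on the log2 scale, and the median member by 0.69 in APP-3 and by 0.76 in APP-4. The medians of both lists were thus close in APP-3 and farther apart in APP-4. The gap was 0.040 when APP-4 was left out and at most 0.27 when another library was.

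**Figure D3:**
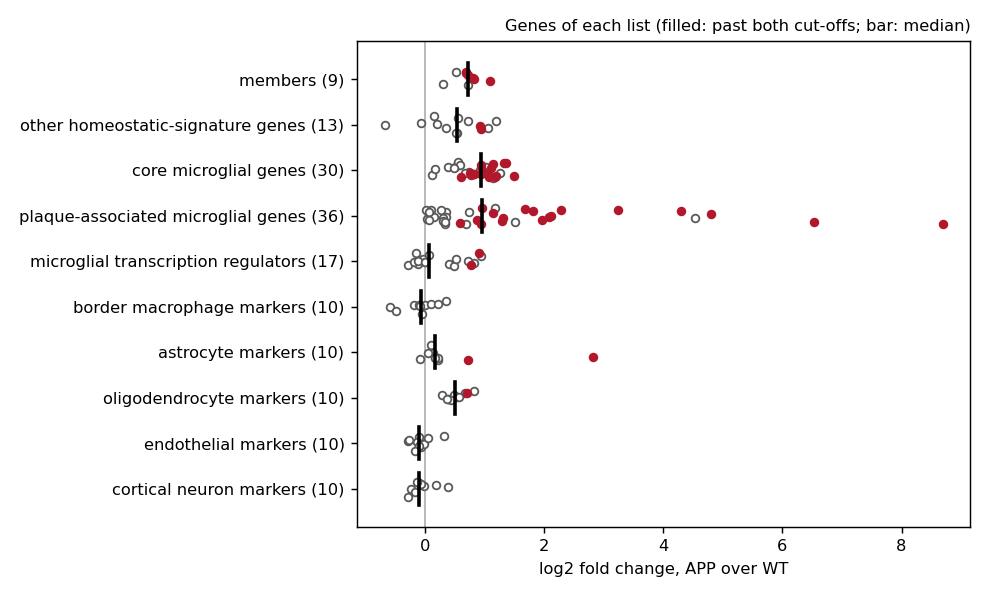
Log2 fold change, APP over WT, of every counted gene of 10 lists (number of genes in brackets); filled points passed both cut-offs and bars are medians. The members' median of 0.72 lies between that of the other homeostatic genes (0.53) and those of the core (0.94) and plaque-associated (0.95) lists; the far right point is Cst7, whose fitted value is no bound since WT had almost no counts.

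Against 0.843% of all genes, 2 of 13 further genes of the homeostatic signature were called higher in APP. These included Hpgds (0.94, FDR = 0.024), a prostaglandin D synthase that was not called without WT-1. Olfml3 (1.05, FDR = 0.088), a secreted protein, and Sall1 (0.72, FDR = 0.11), a transcription factor that sets microglial identity, were not. Among the small values were those of Slc2a5 (0.15), a sugar transporter, Golm1 (0.21), a Golgi protein, and P2ry6 (0.36), a receptor for UDP, none of them called. The median of the 13 was 0.53, 0.19 below that of the members. It was 0.75 when APP-3 was left out and 0.24 when APP-4 was.

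The plaque-associated list of 36 genes had a median of 0.95 with 18 called, against 0.843% of all genes. Many genes of the list are also expressed by neurons, astrocytes or vessels. Among genes of the list with a mean of at least 1 CPM, Ank (0.04), Timp2 (0.07), Lpl (0.08) and Hif1a (0.11) were the smallest. At the top, Clec7a, a receptor for fungal glucans, went from 0.113 ± 0.0007 CPM in WT to 10.8 ± 0.42 in APP (log2 fold change 6.53, FDR = 1.1e-05). Its WT level rested on only 5 reads in WT-1 and 4 in WT-2, so the small SD does not cover counting error. The size of its fold change is therefore imprecise. Itgax, an integrin, rose by 4.29 and Ccl6, a chemokine, by 3.25. Cst7, a cystatin, had 328 and 384 counts in APP and 2 and 0 in WT, which makes it at least 155-fold higher against a floor of 3 counts per library. The gap of 0.23 to the members' median was 0.083 when genes under 10 counts in any library were left out.

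To set each member against microglial RNA of the same mouse, its count was taken as a percent of the summed counts of the 30 core genes. Tmem119 came to 2.11% in APP-3 and 2.68% in APP-4 against 3.47% in WT-1 and 3.69% in WT-2. P2ry12 came to 9.06% and 9.13% in APP-3 and APP-4 against 12.1% and 11.1% in WT-1 and WT-2. Both genes were thus lower in both APP mice, with group means at 0.67 ± 0.12 and 0.78 ± 0.04 times the WT mean. Here ± is the error of the ratio, combined from the relative SDs of both groups. Csf1r (0.89 times) and Cx3cr1 (0.91 times) also did not overlap, by smaller margins, whereas Siglech (0.89), Fcrls (0.96), P2ry13 (0.96) and Selplg (0.98) did. Cx3cr1 was barely apart, with 7.31% in APP-3 and 6.35% in APP-4 against 7.34% in WT-1 and 7.65% in WT-2. Gpr34 came to 5.47% in APP-3 and 4.51% in APP-4 against 4.16% in WT-1 and 4.26% in WT-2, and was higher in both APP mice. Ctss alone made up 22.1% of the core sum over the libraries. With Ctss left out of the sum, the groups of Csf1r and of Cx3cr1 overlapped. Tmem119 and P2ry12 stayed lower and Gpr34 higher in both APP mice.

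With Ctss in the sum, 4 of the 9 members were therefore lower than WT in both APP mice on this scale and 1 was higher. A lower value is the common outcome, since 88.1% of all genes had it. A higher value in both APP mice was found for 216 of the 18387 genes. Among the core genes themselves, each against the sum of the other 29, 9 of 30 were lower and 8 higher, and of the 13 further homeostatic genes 6 were lower and 0 higher. The exact permutation test (two-sided) gave p = 0.333 for each of the 5 members without overlap, the smallest it can give with 2 mice per group. Without any 1 library Tmem119 stayed between 0.59 and 0.75 times WT, and P2ry12 between 0.75 and 0.82.

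**Figure D4:**
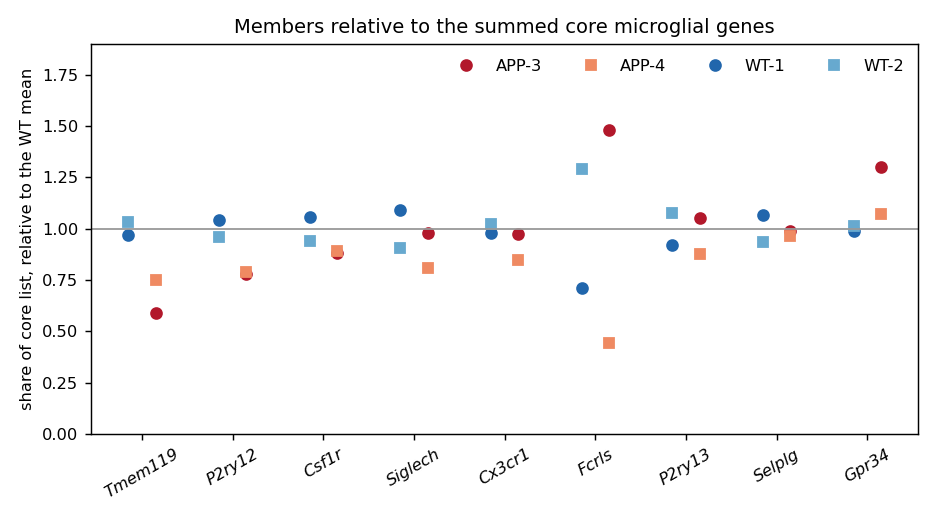
Each member as a share of the summed counts of 30 core microglial genes, divided by its mean in WT (no unit; line at 1), for the 4 cortex libraries. Both APP points of Tmem119, P2ry12, Csf1r and Cx3cr1 lie below both WT points, those of Gpr34 above them. For Cx3cr1 the APP-3 point lies only just below that of WT-1.

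Of 17 listed ligands and partners of these receptors 14 were counted. Against 0.843% of all genes, 2 of the 14 were called higher in APP. These were Tyrobp, the adaptor of Siglech and Trem2, at 23.4 ± 1.84 CPM in APP and 5.52 ± 0.05 in WT (log2 fold change 2.08, FDR = 5.4e-05), and Entpd1, the ectonucleotidase that breaks down ADP, at 16.6 ± 0.48 and 10.7 ± 0.36 CPM (0.63, FDR = 0.027). Entpd1 was not called without WT-1 or without WT-2. The ratio of Tyrobp to Siglech counts was 0.519 in WT-1 and 0.604 in WT-2, and 1.39 and 1.55 in APP-3 and APP-4. Cx3cl1, the fractalkine that binds Cx3cr1, was at 184 ± 9.59 CPM in APP and 231 ± 5.00 in WT, lower in both APP mice but not called (-0.33, FDR = 0.065). Of the ligands of Csf1r, Il34 was at -0.26 (FDR = 0.29) and Csf1 at 0.28 (FDR = 0.39). The other counted partners (Tgfb1, Nt5e, P2rx4, P2rx7, Itgb1, Gnai2, Kcnk13, Adam10 and Adam17) were not called. Tgfb1 had the largest value of these, 1.32 (FDR = 0.27), with both APP libraries above both WT libraries on 9 to 30 counts each. Nt5e had the only negative value, -0.16 (FDR = 0.86).

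Among 17 regulators of microglial identity 2, Tgfbr2 and Cebpa, were called higher in APP, against 0.843% of all genes. Tgfbr2, a receptor of TGF-β, was at 12.1 ± 0.09 CPM in APP and 6.49 ± 0.39 in WT (0.90, FDR = 0.014). Cebpa, a myeloid transcription factor, was at 7.87 ± 0.13 CPM in APP and 4.61 ± 0.01 in WT (0.77, FDR = 0.038). Cebpa was not called without WT-1 or without WT-2, nor Tgfbr2 without WT-1. Irf8 (0.83, FDR = 0.078), a transcription factor of myeloid cells, had like Sall1 and Spi1 a positive value that did not pass. The median of the list was 0.06, and it includes factors such as Mef2c that neurons express strongly.

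The genes outside the list whose levels over the 4 libraries were most like the members' mean profile were Zc3hav1, Entpd1, Slco2b1, Stard4 and Rida, at distances of 0.074 to 0.095 (Euclidean, centred log2 CPM, 4 libraries, genes of at least 5 CPM). Of the members, Cx3cr1 lay closest to their mean (0.056) and Fcrls farthest (1.19).

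Markers of other cells were counted in the same libraries, where 0.843% of all genes were called higher in APP. Border macrophage markers had 0 of 10 called and a median of -0.07, with a summed level of 22.9 to 24.2 CPM in APP and 23.1 to 24.8 in WT. Of 10 markers of monocytes, neutrophils and lymphocytes 7 were counted, with 0 called and a sum of 3.52 to 6.68 CPM in APP and 4.19 to 4.54 in WT. Endothelial and neuronal markers had 0 of 10 called each, with medians of -0.10 and -0.11. Of 10 oligodendrocyte markers 1 was called, while all 10, against 21.3% of all genes, had both APP libraries above both WT libraries, with a median of 0.51 and a sum of 1745 to 2012 CPM in APP against 1297 to 1441 in WT. Astrocyte markers had 2 of 10 called, a median of 0.16 and a sum of 4745 to 5106 CPM against 3888 to 4265. The part of either in the members' values was not tested.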

How the data were processed

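Cortical RNA of 2 APP and 2 WT mice was sequenced by the authors after removal of ribosomal RNA and aligned to mouse transcripts. The submitters' notes name hg19, a human build, beside CASAVA 1.8 and edgeR; the Ensembl release is not given in the sources used here. The deposited values are counts of reads per transcript, not normalized. A further 4 columns, 1 for each library, and the authors' fold change, mean log2 CPM, p-value and FDR of their own comparison were left out. Transcripts (37539, 98.2% matched) were summed per gene with GENCODE M21, since 1 P2ry12 row has no symbol and symbols vary in case. The 694 unmatched transcripts were kept under their own identifiers and stand among the 18387 genes. Genes needed at least 10 counts.

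Counts were compared in R 4.3.3 with edgeR 4.0.16 (quasi-likelihood test, TMM, no covariate, Benjamini-Hochberg over 18387 genes; common dispersion 0.0078); DESeq2 1.42.0 was an alternative. CPM uses TMM library sizes. The test was checked on simulated data. Transcripts were compared with blastn 2.17.0. A value after a gene name is a log2 fold change unless another quantity is named. Floors cover counting error only, as reads carry no molecular identifiers. The labels do not tie the APP columns, numbered 3 and 4, to single mice.

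The members and gene lists were chosen with earlier results of these data known. Genes named are all members; the 4 largest and 4 smallest changes, of at least 1 CPM, in the homeostatic, core and plaque lists; all counted partners; called P2Y receptors and regulators with Sall1, Spi1 and Irf8; neighbouring and overlapping genes; the 5 nearest profiles; App and Prnp. Some genes that this rule selects are not reported here, but stay in the counts and medians of their lists. Some genes, such as Spi1, Sall1 and Tyrobp, stand in more than 1 list.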

Additional observations from a re-analysis of the deposited data

How the results depend on the processing

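The count of 6 members was the same, with P2ry12, Tmem119 and Fcrls below the cut-offs, under 10 alternatives that kept all 4 libraries: DESeq2, the likelihood ratio and exact tests of edgeR, no TMM, TMM over coding genes, no filter, at least 10 counts in every library, coding transcripts only, the most counted transcript of each gene, and deposited symbols, chosen after seeing the data. Over these settings 141 to 350 genes were called higher in APP, of 15391 to 22919 tested. The count of members was 1 at a fold change of at least 2. Leaving out 1 library changed which members passed, with fewer passing without WT-1 or without WT-2. Calls over all genes moved too, upward with an APP library left out and downward with a WT library left out. The numbers of members passing are therefore not compared between those fits. A lone library of a group was then assumed to vary like the other genotype.

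Leaving out 1 library, the members' median ranged from 0.66 to 0.78, the core median from 0.72 to 1.03, that of the other homeostatic genes from 0.24 to 0.75 and the plaque-associated median from 0.87 to 0.96. Their gaps to the members ranged from 0.040 to 0.27 (core), from -0.44 to -0.016 (other homeostatic) and from 0.15 to 0.26 (plaque-associated). The plaque-associated median was 0.81 with at least 10 counts in every library and 1.08 with the most counted transcripts, and its gap 0.083 and 0.35. Asking for at least 10 counts in every library leaves out genes with few WT counts, such as Cst7 and Clec7a. The cause of the change with the most counted transcripts was not tested.

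Some log2 fold changes turned sign when 1 library was left out. They ranged from -0.045 to 0.58 for Tmem119 and from -0.17 to 1.29 for Fcrls. Among the partners the range was -0.059 to 0.19 for Adam17, -0.47 to 0.22 for Nt5e and -0.022 to 0.081 for P2rx4. In the other lists it was -0.0052 to 0.090 for Ank, -0.20 to 0.75 for P2ry6 and -0.57 to 0.62 for Slc2a5. Among overlapping genes it was -0.19 to 0.016 for Csrnp1, -0.082 to 0.033 for Med12l and -0.69 to 0.67 for Ttc21a. With the most counted transcripts Lpl was at -0.0597 and Med12l at 0.021, and with coding transcripts only P2rx4 was at -0.000404.

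No paired analysis was possible because the APP columns are numbered 3 and 4 and the WT columns 1 and 2, so the groups share no number. With 2 mice per group, p-values rest on a spread shared between genes, and at 3.52 to 6.68 summed CPM small changes of leukocyte markers were not detectable.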
